A study of Mus musculus with 24 samples.

Results

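The response of wildtype mouse embryonic fibroblasts to heat was compared between a long and a short time at 43 °C. All 12 wildtype arrays of a series of 24 arrays were used, 3 in each of 4 groups. The cells were CHIP (+/+) embryonic fibroblasts prepared from day 13.5 embryos of heterozygous C57BL6 parents, and the 4 groups were unheated (37 °C) or heat shocked (43 °C) cultures labelled 30 min or 240 min. The other 12 arrays hold fibroblasts of CHIP null embryos in the same 4 conditions and served here as the nearest comparison. The Stub1 gene encodes CHIP, a co-chaperone of HSP70 that attaches ubiquitin to its clients. The labels call the samples biological replicates and do not say whether they came from separate embryos, so p-values measure the spread between these cultures or preparations. Each array carried the sample in Cy5 and one commercial mouse reference RNA in Cy3, and every level below is the log2 ratio of Cy5 to Cy3.

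Heat unfolds proteins, and cells answer through heat shock factor 1, which binds paired GAA repeats in front of chaperone genes and raises the inducible HSP70 far above its resting level. Heat also halts the cell cycle and slows the production of many transcripts, so that messages with a short life fall first. Fibroblast cultures from whole embryos also carry other cell types, among them macrophages, and in bulk RNA fewer cells of a type and less RNA per cell cannot be told apart.

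The quantity described throughout is the difference by time: the heat effect at 240 min (heated minus control) minus the heat effect at 30 min, on the log2 scale. A positive value means that heated cells stood higher, relative to their own controls, at 240 min than at 30 min. The sign rests on the time labels of the scanner files. In the authors' deposited value table all 24 columns resembled the scanner file of the opposite time label: over the wildtype columns the correlation across probes was at least 0.9975 with the opposite time and at most 0.856 with the named time. If the times of that table are the right ones, the effects given here for 30 min and 240 min change places and every difference changes sign.

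The 2 time sets differed in more than time. They were hybridised on different slides, and 8573 of 13488 genes (63.6%) differed between the wildtype controls labelled 240 min and 30 min at an adjusted p below 0.05. Between 35.7% and 42.4% of probes were well above background in Cy5 on the 30 min arrays, against 45.7% to 49.6% on the 240 min arrays. A constant offset between the sets cancels in a difference of within-time differences, whereas a difference between the cultures in how they answer heat does not. A difference between the sets in the scale of the ratios does not cancel either, and its part was not tested. Slide was also uneven within the sets: 2 of the 3 controls at 30 min and 2 of the 3 heated samples at 240 min sat on slides without the matching wildtype treatment. Replicates of one group correlated at 0.984 to 0.995 across genes. All 15 fibroblast markers were among the genes tested, with 11 to 15 of them well above background on each wildtype array.

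Heat changed 1964 genes at 30 min (14.6% of those tested) and 4245 genes at 240 min (31.5%) by limma with Benjamini-Hochberg adjustment. In the log ratio of the Feature Extraction software the counts were 2746 and 2650, so the larger count at 240 min depended on the processing. The difference by time itself passed the same threshold for 170 genes (1.26%), 100 higher and 70 lower, and 34 of these differed by more than 1.5-fold. At an unadjusted p below 0.05 the difference stood for 2203 genes. So most genes that passed at one time and not at the other were not shown to differ between the times: of 2007 genes that rose at 240 min without passing as a rise at 30 min, 61 had a called difference, and of 1088 that fell at 240 min without passing as a fall at 30 min, 54 did. The effects at both times had a correlation of 0.63 across 13488 genes, which share libraries and are not independent. The median difference of all genes was 0.03.

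The 170 genes were sorted by the sign of the difference and by the time at which the heat effect was larger. In 52 genes the larger effect was early and the difference positive (early fall), in 61 the larger effect was late and the difference negative (late fall), in 48 it was late and positive (late rise), and in 9 it was early and negative (early rise). Of the early falls, 13 were called in the opposite direction at 240 min. Slide as a block moved the count of calls more than any other setting, to 20 genes. Within the slides that held both treatments 35 genes were called, 28 of them among the 170. Both fits took the wildtype difference only from those slides. With slide as a random block, which uses all 12 wildtype arrays, 117 genes were called. Of 38 genes with a call that are described here with values in each fit, 2 were chosen after their values were seen. With slide as a block 26 of the 38 lost the call, and with slide as a random block 4 did. None of the 38 changed sign in any fit but the one with the time labels exchanged. Median centring in place of loess gave 28 calls, and without one of the 12 arrays the count ran from 87 (240 min control replicate 2 left out) to 248 (30 min control replicate 3 left out).

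**Figure D1:**
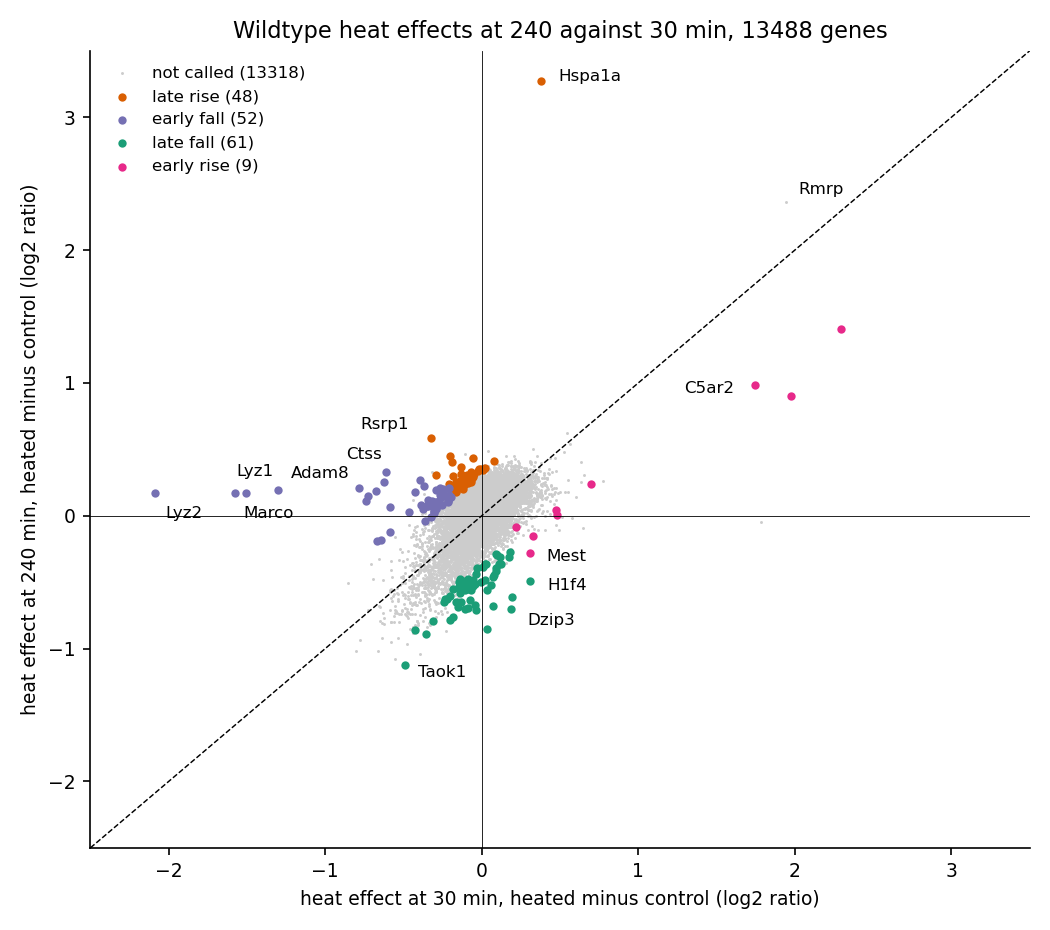
Heat effect at 240 min against heat effect at 30 min in wildtype cells, both as log2 ratios, 1 point per gene; coloured points are the 170 genes with a called difference, by class, and the dashed line marks equal effects. Lyz2, Marco, Lyz1 and Adam8 lie far to the left near 0 on the vertical axis, Hspa1a stands alone at the top with effects of 0.38 and 3.27, and Rmrp, at 1.95 and 2.36, lies near the dashed line.

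Hspa1a, which encodes the inducible cytosolic HSP70, had the largest called difference of all genes tested. Its ratios in the 30 min controls were -0.74, -0.72 and -0.68, and in the heated cells -0.33, -0.04 and -0.62. At 240 min the controls read -0.89, -0.93 and -0.85 and the heated cells 4.04, 1.39 and 1.72. Heated and control arrays did not overlap at either time, and the gain of the heated cells was small at 30 min and large at 240 min, with replicate 1 far above the other two. The heat effect was 0.38 at 30 min (adjusted p = 0.55) and 3.27 at 240 min (9.66-fold, adjusted p = 8.6e-07), a difference of 2.89 ± 0.54 (SE, n = 3 per group, adjusted p = 0.0047, limma). That SE and these p-values rest on one spread pooled over all 8 groups of both genotypes. The SD of the heated arrays was 1.44 at 240 min and 0.29 at 30 min, against 0.03 and 0.04 in the 30 and 240 min controls. So the pooled SE understates the spread of the heated 240 min group, and the p-values are to be read with that limit. Without the high replicate the difference was 2.06, and over all fits without 1 array it reached at most 3.39. Within slides it was 4.58, a value that rests on that replicate as the one heated array beside 240 min controls. The 3 other probes named Hspa1a were all called the same way, with differences of 1.09, 1.84 and 2.64. The neighbouring Hspa1b is nearly identical and was not among the genes tested under its own name, so the signal may include both. In the Feature Extraction log ratio the size held at 2.83 but the call did not (adjusted p = 0.058).

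The window of 250 bases before the Hspa1a start is shown because this promoter belongs to the gene with the largest difference; it lies at chr17:34972157-34972406, minus strand (RefSeq, GRCm38.p6), printed 5′ to 3′. Capitals mark the paired repeat GAANNTTC, which reads the same on both strands and starts 104 bases before the gene.
Hspa1a: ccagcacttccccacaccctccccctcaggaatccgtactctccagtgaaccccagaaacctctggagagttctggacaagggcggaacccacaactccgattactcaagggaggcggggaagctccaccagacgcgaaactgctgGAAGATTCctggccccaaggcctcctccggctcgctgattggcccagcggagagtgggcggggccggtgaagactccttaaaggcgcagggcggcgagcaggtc
That motif occurs in 6.69% of 32851 RefSeq windows of this length. Among 20 matched members of the HSP70 and HSP40 list 5 carry it, and Hspa1a is the only one of these 5 with a called difference. The windows of Hspa1a and Hspa1b are identical at 247 of 250 bases.

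Other heat shock genes had no response of that size. Of 23 tested members of the cytosolic HSP70, HSP110 and HSP40 list, Hspa1a alone was called (0.741% of all genes were called higher), and the list's median difference was 0.09. At 30 min 6 members fell and none rose (background 7.79% and 6.77%). At 240 min 2 rose and 5 fell (18.8% and 12.7%). Hsp90aa1, the inducible cytosolic HSP90, read 1.19, 1.10 and 1.07 in the 30 min controls, 0.78, 0.86 and 0.64 after heat, 1.47, 1.48 and 1.49 in the 240 min controls and 1.64, 1.59 and 1.45 after heat. It fell at 30 min by 0.36 (adjusted p = 0.012) with no overlap between the groups, while the groups overlapped at 240 min. Its difference of 0.44 ± 0.14 missed the threshold (adjusted p = 0.091), and so did that of Hsph1, an HSP110 that reloads HSP70 with nucleotide (0.30 ± 0.10, adjusted p = 0.13). Dnajb1, the main HSP40 partner of HSP70, fell by 0.38 at 30 min and by 0.20 at 240 min, and its difference was 0.18 (adjusted p = 0.23). A dimmer Dnajb1 probe had effects of -0.21 and 0.01, so it did not show the fall at 240 min. Hspa8, the constitutive HSP70, had effects of 0.12 and 0.07, neither called. A dimmer Hspa8 probe had effects of -0.03 and 0.13, with a difference of 0.16 that was not called. Hspd1, the mitochondrial chaperonin, fell by 0.64 and 0.81, with a difference of -0.17 ± 0.17 (adjusted p = 0.69).

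**Figure D2:**
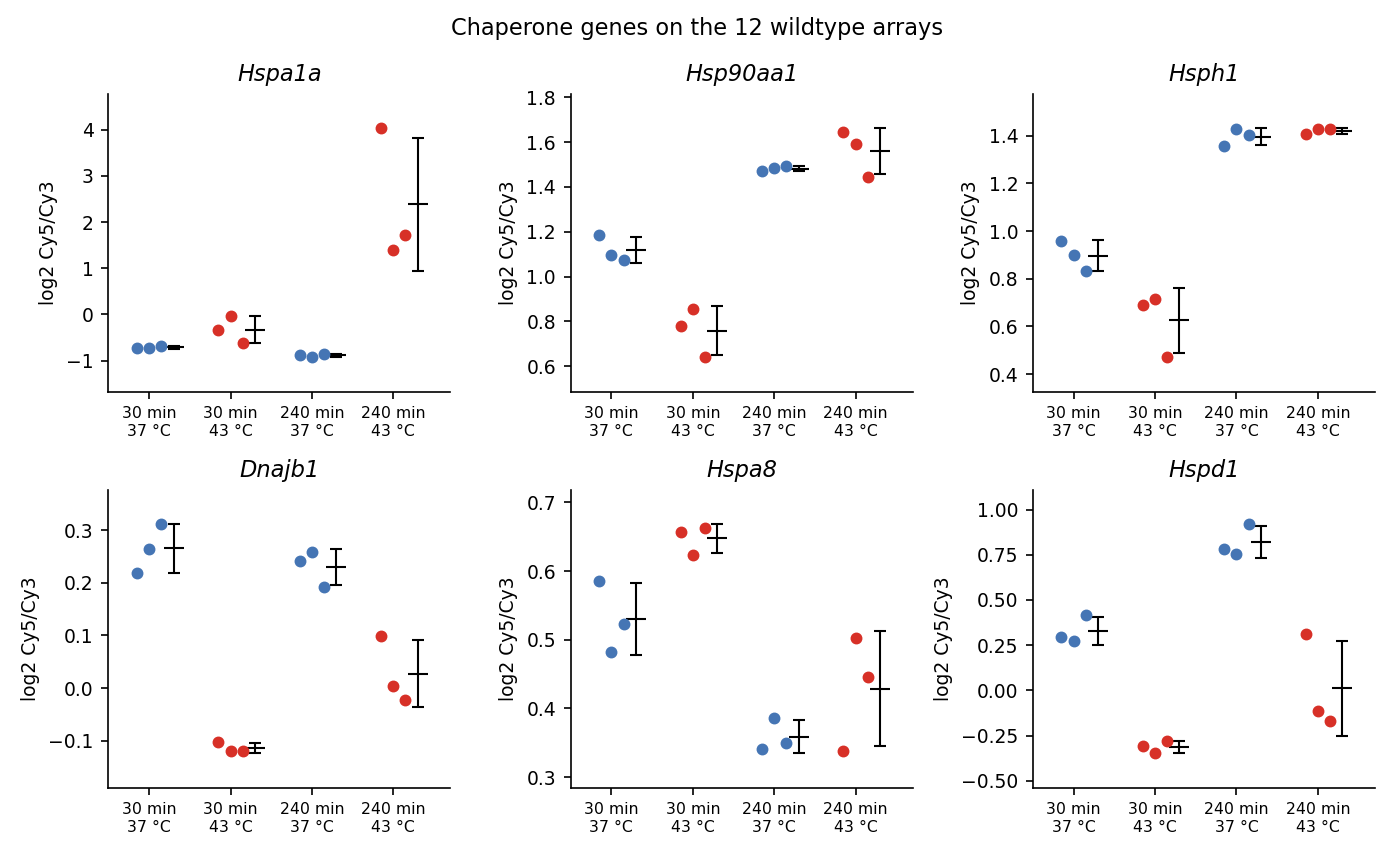
Log2 Cy5/Cy3 ratios of 6 chaperone genes on the 12 wildtype arrays by group; points are arrays, horizontal marks are means and bars are SD (n = 3), and the vertical axis differs between panels. Only the Hspa1a panel has heated arrays at 240 min, at 1.39 to 4.04, far above all other arrays.

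The 14 tested genes of the HSP90 machinery and heat shock factors had no called difference. Over all genes the share called was 1.26%, so none or 1 in a list of this size lies near that share. The list's median was 0.01, which was 0.105 to 0.146 with slide as a block, median centring or the Feature Extraction log ratio. None of the 8 tested small heat shock proteins had a called difference, although 2 rose at 30 min and 5 at 240 min (6.77% and 18.8% of all genes). Hspb1 was one of the latter, with a rise of 0.31 at 240 min and a difference of 0.22 (adjusted p = 0.31). The 14 members of the chaperonin and prefoldin list, which fold actin and tubulin, had a median difference of 0.195, and 10 were above 0. Pfdn6, a prefoldin subunit, was the one called member: its effect was -0.12 at 30 min and 0.20 at 240 min (difference 0.32 ± 0.08, adjusted p = 0.041). That call was lost in 10 of the 12 fits that left out 1 array, so it is marginal. Among mitochondrial chaperones and proteases 1 of 14 was called, the inner membrane protease gene Yme1l1 (0.35 ± 0.09, adjusted p = 0.047), and its call was lost in 11 of those 12 fits. Dimmer Yme1l1 probes gave 0.09 and 0.46 without a call.

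Macrophage markers had the highest share of called members among the 37 lists. Of 21 tested, 10 were called higher and none lower, and all 10 belonged to the early falls (background 0.741% higher). Their list fell at 30 min in 12 members and rose in none (7.79% and 6.77% of all genes). At 240 min it rose in 9 members (18.8% of all genes). The list's median effect was -0.25 at 30 min and 0.17 at 240 min, with a median difference of 0.37 against 0.03 for all genes.

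Lyz2, a lysozyme of macrophages and other myeloid cells, read 0.04, -0.06 and 0.06 in the 30 min controls and -2.06, -2.21 and -1.94 in the heated cells. At 240 min it read -3.03, -2.70 and -2.86 in controls and -2.63, -2.71 and -2.75 after heat. The 30 min controls stood apart from all the other 9 wildtype arrays, and the groups overlapped at 240 min. The difference was 2.26 ± 0.12 (adjusted p = 3.6e-13). A dimmer second Lyz2 probe gave 0.30 and was not called (adjusted p = 0.096).

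Marco, a scavenger receptor of macrophages, read 0.56, 0.44 and 0.26 in 30 min controls and -1.17, -1.27 and -1.04 after heat. At 240 min its controls read -2.60, -2.46 and -2.43 and the heated cells -2.39, -2.32 and -2.26. Heat lowered Marco at 30 min by 1.58, its groups at 240 min were separate but close, and the difference was 1.75 ± 0.11 (adjusted p = 1.3e-11). Lyz1, the second lysozyme gene, followed the same course with a difference of 1.68 ± 0.11. Adam8, a membrane metalloprotease, fell by 1.30 at 30 min and rose by 0.19 at 240 min, a difference of 1.49 ± 0.09. Ctss, which encodes the lysosomal protease cathepsin S, fell by 0.79 and rose by 0.21 (difference 0.996 ± 0.09, adjusted p = 3.2e-08). Csta2, of the cystatin family of protease inhibitors and outside the marker list, fell by 0.61 and rose by 0.33 (difference 0.95 ± 0.13, adjusted p = 7.4e-05). Adgre1, C1qc, Mpeg1, Cd52 and C1qa were the other called markers, with differences of 0.45 to 0.88. Adgre1 and C1qa were well above background on only 1 of the 3 heated arrays at 30 min, so their falls there run close to the floor. Cd68, Tyrobp and Fcer1g, which macrophages also express, had differences of 0.15 to 0.36 that missed the threshold.

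**Figure D3:**
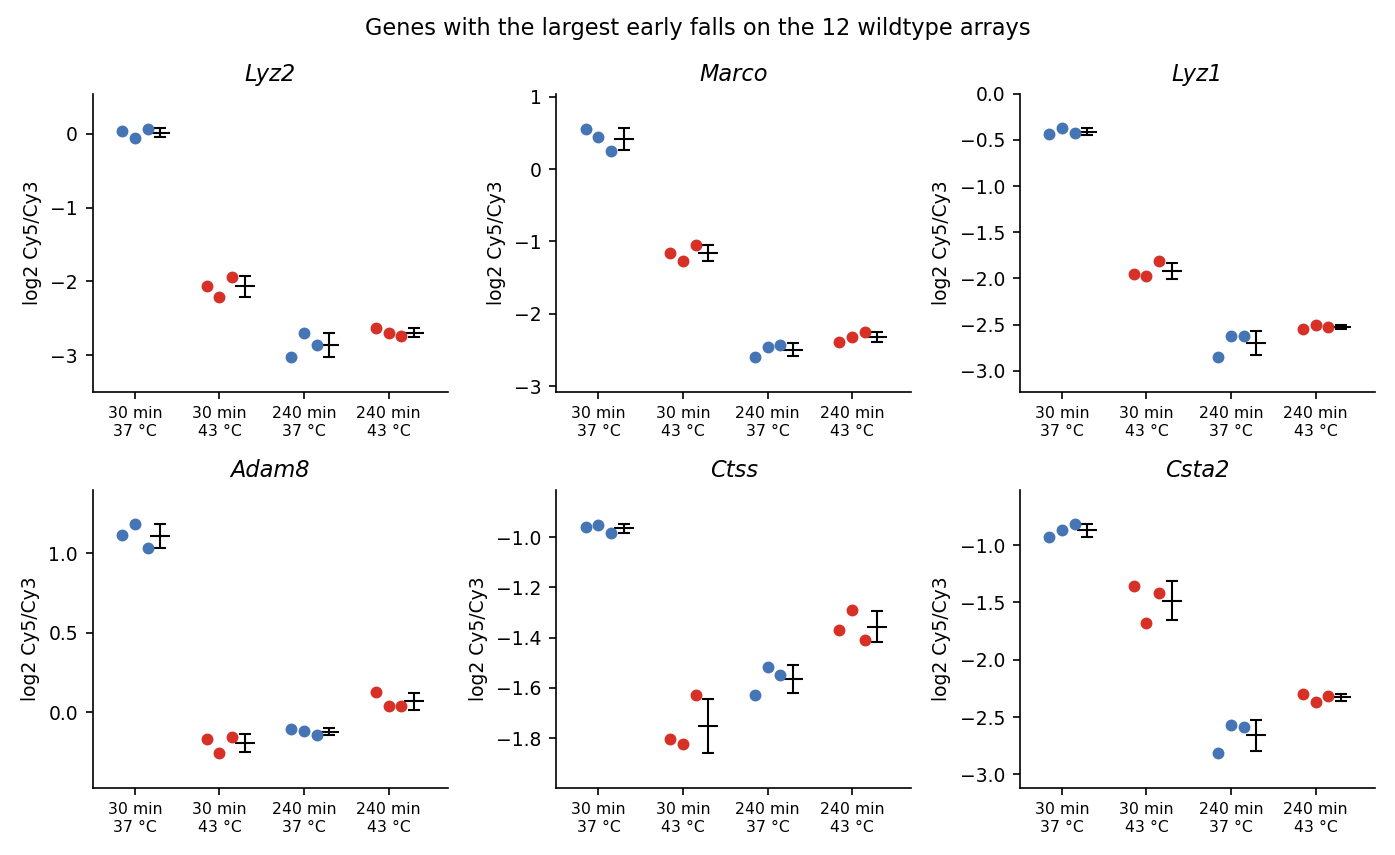
Log2 Cy5/Cy3 ratios of the 6 named genes with the largest early falls on the 12 wildtype arrays; points are arrays, horizontal marks are means and bars are SD (n = 3). In each panel the 3 unheated arrays labelled 30 min are the highest of the 12, from 0.26 to 0.56 for Marco against -2.60 to -1.04 on the other arrays.

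The level of the whole marker list moved with these genes. The sum of the 21 linear ratios was 17.7 to 18.2 in wildtype 30 min controls, 12.5 to 13.6 in the heated cells of that time, 12.5 to 13 in 240 min controls and 14.1 to 14.4 after heat at 240 min. In the CHIP null arrays the same sums were 11.5 to 12, 12.4 to 12.9, 10.7 to 11 and 11.7 to 12.6. The wildtype 30 min controls were therefore the one group of 8 that stood clearly above the rest, and the contrast uses them as the baseline of the early effect. The part of macrophage content in these differences was not tested. Of the 21 markers, 15 to 20 were well above background on the heated 30 min arrays. All 21 were in the 30 min controls, and 20 to 21 on the 240 min wildtype arrays. So the sums of the heated 30 min arrays include values near the floor. The marker calls changed little with the fit: 8 of 21 were called with slide as a block, 8 within slides, 9 with median centring, and 9 to 12 without any 1 array. The list's median was 0.738 with a smaller normexp offset, 1.26 in the Feature Extraction log ratio, and 0.629 over the members well above background on all wildtype arrays. Lyz2, Marco, Lyz1, Adam8, Ctss and Csta2 kept their call in every alternative fit that was run, but the size of 2 depended on the signal used: in the Feature Extraction log ratio Ctss gave 1.90 and Csta2 2.43.

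Genes of mitosis and cytokinesis formed the second group. Of 28 tested, 10 were called higher and none lower (background 0.741% and 0.519%), and the median difference was 0.29. At 30 min 18 members fell and none rose (7.79% and 6.77% of all genes), with a median effect of -0.22. At 240 min 4 rose and 8 fell (18.8% and 12.7% of all genes), with a median effect of 0.02. Birc5, which encodes the mitotic regulator survivin, read 0.48, 0.34 and 0.42 in 30 min controls and -0.07, -0.10 and 0.00 after heat. Its 240 min controls read 1.11, 1.0 and 1.11 and the heated cells 1.20, 1.12 and 0.98. The groups were apart at 30 min and overlapped at 240 min, and the difference was 0.50 ± 0.10 (adjusted p = 0.010). Prc1, a bundler of spindle midzone microtubules, fell by 0.67 and by 0.19 (difference 0.48 ± 0.09, adjusted p = 0.0055). Mki67, the proliferation antigen Ki-67, fell by 0.64 and by 0.18 (difference 0.46 ± 0.10, adjusted p = 0.012), and its dimmer probe gave 0.28 without a call. Kif20a, a kinesin of the central spindle, fell by 0.26 and then rose by 0.16 (difference 0.42 ± 0.08, adjusted p = 0.0047), and its second probe was called the same way. Cdk1 and Bub1, the mitotic kinase and a checkpoint kinase, were not called at 30 min and rose at 240 min by 0.21 and 0.29. Members were not alike: Cenpf fell by 0.56 at both times, and Ect2 and Top2a also had differences close to 0.

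The differences of the mitosis genes were small beside those of the macrophage markers, and their calls were less robust. None of the 28 was called with slide as a block or with median centring and 2 within slides, although the list's median stayed between 0.26 and 0.37 in all those fits and in the Feature Extraction log ratio. Without any 1 array 4 to 10 were called. The 36 genes of DNA replication, which act in the preceding phase of the cycle, had no called member (1.26% of all genes were called). Their median difference was 0.12, with 5 members falling at 30 min (7.79% of all genes did) and 9 rising at 240 min (18.8% of all genes).

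Promoter windows of Prc1 and Mki67 are shown because both genes are among the 10 called mitosis genes and carry the cell cycle homology region TTTGAA (capitals, either strand, RefSeq, GRCm38.p6). The Prc1 window is chr7:80294226-80294475, plus strand, from the second of its 2 listed starts. Only 1 of the 2 Prc1 windows has a match, and that window was picked for it. The Mki67 window is chr7:135716380-135716629, minus strand, with 2 matches.
Prc1: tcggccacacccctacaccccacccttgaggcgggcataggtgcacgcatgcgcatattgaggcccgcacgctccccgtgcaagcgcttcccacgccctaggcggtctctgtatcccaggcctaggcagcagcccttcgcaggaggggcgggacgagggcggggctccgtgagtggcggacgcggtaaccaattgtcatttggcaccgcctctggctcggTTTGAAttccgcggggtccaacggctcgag
Mki67: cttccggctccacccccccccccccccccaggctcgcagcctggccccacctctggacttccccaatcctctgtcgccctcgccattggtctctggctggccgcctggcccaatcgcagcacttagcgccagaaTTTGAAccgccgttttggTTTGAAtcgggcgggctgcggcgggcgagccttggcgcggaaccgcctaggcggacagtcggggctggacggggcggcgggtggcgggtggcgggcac
TTTGAA occurs in 15.99% of all windows of this length and in 38.5% of those of the mitosis list. Of 9 matched members with a called difference 5 carry it (Ccnb2, Cdc20, Cdk1, Mki67 and Prc1), and of 24 matched members in all 9 do.

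The 61 late falls were led by genes of other kinds. All 61 fell at 240 min, 9 had also passed at 30 min, and their median effects were -0.07 and -0.54. Dzip3, a ubiquitin ligase that binds RNA, read -1.11, -1.17 and -1.09 in the 30 min controls and -0.86, -1.28 and -0.67 after heat. At 240 min it read -1.57, -1.46 and -1.45 in controls and -2.20, -2.15 and -2.24 after heat. The groups overlapped at 30 min and were clearly apart at 240 min, with a difference of -0.89 ± 0.14 (adjusted p = 0.00087). In the Feature Extraction log ratio it was -1.64. A dimmer Dzip3 probe gave -0.35 and was not called (adjusted p = 0.091). Stard4, a cytosolic cholesterol carrier, had an effect of 0.07 at 30 min and fell by 0.68 at 240 min (difference -0.75 ± 0.11, adjusted p = 0.00038), but its 2 dimmer probes gave 0.08 and 0.18. Scd2, a fatty acid desaturase, was the other called member of the 29 sterol and fatty acid genes (difference -0.39 ± 0.10, adjusted p = 0.049), and its call was lost in 10 of the 12 fits without 1 array. Taok1, a kinase upstream of stress kinases, fell by 0.49 and then by 1.12 (difference -0.63 ± 0.15, adjusted p = 0.028), with a second probe called the same way at -0.55 and another at -0.25 without a call. The call of the brighter Taok1 probe was lost in 7 of the 12 fits without 1 array.

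The loci of the late falls were long. Their median span from the first to the last base of the gene was 61.2 kb over the 51 of 61 with a RefSeq match (GRCm38.p6), against 22.6 kb over all matched genes tested, 19.4 kb for the early falls and 20.7 kb for the late rises. Regulators of transcription and signalling, picked after their values were seen, were among them: Suz12, Nfib, Foxo1, Creb1, Klf5, Bmpr2 and Cdk6 had differences of -0.60 to -0.39. Dimmer probes of Suz12, Creb1, Bmpr2, Cdk6 and Foxo1 were not called, with differences of -0.20 to 0.05, whereas both other probes of Nfib were called the same way. Over all 170 genes, 72 had another probe with a value; 10 of these had another probe called the same way, and in 59 all other probes had the same sign. Among the late falls these counts were 3 and 28 of 35.

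Histones were the one list with more than 2 members called lower. Of 20 tested members, 4 were called lower (background 0.519%) and none higher, and the list's median difference was -0.14, or -0.354 in the Feature Extraction log ratio. At 30 min 6 members rose and none fell (6.77% and 7.79% of all genes). At 240 min 6 rose and 6 fell (18.8% and 12.7% of all genes). H1f4, a linker histone, read -0.23, -0.24 and -0.03 in the 30 min controls and 0.12, 0.05 and 0.27 after heat. At 240 min its controls read -0.08, -0.14 and -0.02 and the heated cells -0.73, -0.53 and -0.47. So H1f4 rose at 30 min (0.31, adjusted p = 0.049) and fell by 0.49 at 240 min, with no overlap at either time and a difference of -0.80 ± 0.15 (adjusted p = 0.0047). H1f5, another linker histone, had a difference of -0.80 ± 0.17 (-1.60 in the Feature Extraction log ratio), and the core histone genes H2ac10 and H2ac15 had -0.67 ± 0.14 and -0.49 ± 0.11. The second H2ac10 probe was called the same way at -0.59. H2ac1, which is not on the list, had -0.50 ± 0.11 (adjusted p = 0.018). H2bc4, H2ac8 and H4c9 lay on the opposite side, with differences of 0.33, 0.29 and 0.21 that missed the threshold. Histone genes are near-copies of one another, and cross-hybridisation between them was not tested. Within slides 3 of the 4 were called, and with slide as a block none was.

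**Figure D4:**
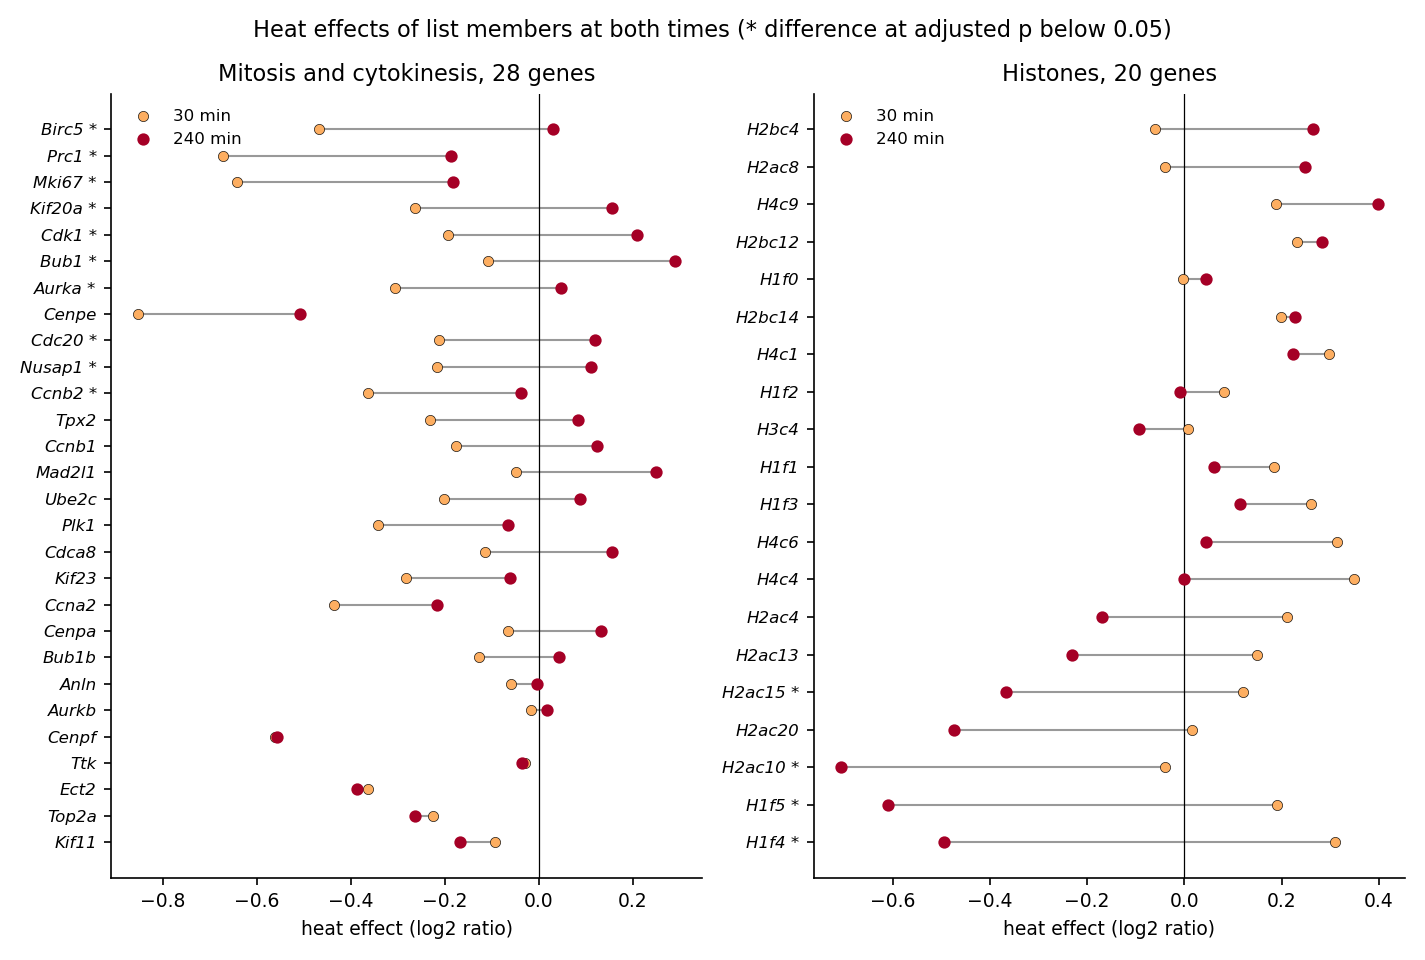
Heat effects at 30 min (pale) and 240 min (dark) of the 28 mitosis genes and the 20 histone genes tested, in log2 ratio, joined by a line for each gene and ordered by the difference; a star marks a called difference. In most mitosis genes the 240 min point lies to the right of the 30 min point, as for Birc5 at -0.47 and 0.03, and in H1f4, H1f5, H2ac10 and H2ac15 far to the left.

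The H1f4 window is shown as that of a called histone, with the CCAAT box in capitals (either strand); it spans chr13:23622559-23622808, minus strand (RefSeq, GRCm38.p6), and the box starts 52 bases before the gene.
H1f4: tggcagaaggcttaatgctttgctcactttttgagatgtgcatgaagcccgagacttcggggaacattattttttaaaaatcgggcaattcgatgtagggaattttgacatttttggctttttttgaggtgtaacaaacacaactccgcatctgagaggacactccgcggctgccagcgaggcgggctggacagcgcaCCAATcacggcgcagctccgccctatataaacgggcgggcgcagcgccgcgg
All 4 called histones carry CCAAT in the window, but so do 16 of 19 matched members of the list and 33.85% of all windows.

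Among the 48 late rises the effects were modest apart from Hspa1a. Rsrp1, which encodes a protein rich in arginine and serine, read -1.7, -1.84 and -1.68 in 30 min controls and -2.04, -2.22 and -1.95 after heat, then -2.11, -2.00 and -1.98 in 240 min controls and -1.23, -1.55 and -1.55 after heat. It fell at 30 min and rose at 240 min without overlap at either time (difference 0.91 ± 0.13, adjusted p = 0.00025). Its call was kept in every alternative fit. Hcls1, a signalling adaptor of blood cells, also fell and then rose (-0.29 and 0.30, difference 0.59 ± 0.09, adjusted p = 0.00038). Its difference was 1.82 in the Feature Extraction log ratio, and the call was lost with slide as a block (adjusted p = 0.073) and within slides (adjusted p = 0.12). Cyba, a subunit of the phagocyte oxidase, Nmral1, a redox sensor, and Vps35l, a subunit of an endosomal sorting complex, were not called at 30 min and rose at 240 min by 0.37, 0.44 and 0.30. A dimmer Vps35l probe had an effect of 0.06 at 240 min and a difference of 0.03 without a call. The Vps35l call was lost with the mean of all probes and in the Feature Extraction log ratio. Pml, which encodes the scaffold of nuclear bodies that hold DAXX, had effects of -0.11 and 0.27 (difference 0.38 ± 0.08, adjusted p = 0.016). Pml was the one called gene of 18 on the DAXX, HIPK and ASK1-JNK list (1.26% of all genes were called). A dimmer Pml probe gave 0.20 without a call.

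The 9 early rises included 3 features with large effects at both times. C5ar2, a receptor for complement C5a, read -0.15, -0.15 and -0.05 in the 30 min controls and 1.58, 1.69 and 1.60 after heat, then 0.03, -0.16 and -0.10 in 240 min controls and 0.87, 0.82 and 1.03 after heat. It was not well above background on any control array, so its control ratios are floor values. In the Cy5 signal alone, scaled between arrays and without division by the reference, heated cells were at least 3.40-fold higher at 30 min and at least 1.78-fold higher at 240 min, a comparison open to dye bias. The difference by time passed the threshold (adjusted p = 0.00025), but its size is not fixed by these data: it was -0.76 here and -2.40 in the Feature Extraction log ratio, where the call was lost (adjusted p = 0.088). Chosen after their values were seen, the transcript AK048095 and the unnamed probe A_52_P981301 rose at both times and more at 30 min, with differences of -1.07 ± 0.10 and -0.89 ± 0.10. Mest, an imprinted gene of the mesoderm, rose at 30 min by 0.31 and fell at 240 min by 0.28 (difference -0.59 ± 0.12, adjusted p = 0.013). Ncan, a proteoglycan of neural tissue, and Mlc1, a membrane protein of astrocytes, each rose by 0.48 at 30 min and had effects of 0.01 and 0.04 at 240 min. The 240 min controls minus the 30 min controls gave -3.66 for Ncan and -2.53 for Mlc1, so the unheated arrays of the 2 sets already differed in these genes. Fjx1, a secreted protein of the Four-jointed family, had effects of 0.32 and -0.15 (difference -0.48 ± 0.10, adjusted p = 0.013, or -1.08 in the Feature Extraction log ratio). Ccnd1, the cyclin of the first gap phase, rose by 0.22 at 30 min, and its difference of -0.30 ± 0.08 (adjusted p = 0.043) was lost in 10 of the 12 fits without 1 array.

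Among lists with 1 or no called member, the values lay close to those of all genes or moved slightly as a whole. Of all genes tested 1.26% had a called difference, so none or 1 in lists of these sizes does not set them apart. Of 29 immediate early genes tested, which signals switch on within minutes, Myc was called (difference -0.43 ± 0.11, adjusted p = 0.041, lost in 10 of 12 fits without 1 array). Dimmer Myc probes gave -0.26 and -0.25 without a call. The list's median difference was -0.12, with 22 members below 0 and 13 members falling at 240 min (12.7% of all genes), and it was -0.0668 with slide as a block. Cytosolic ribosomal proteins had no called difference in 60 members, although 42 rose at 30 min (6.77% of all genes) and 21 at 240 min (18.8%). The median difference was -0.09, and its sign turned in the Feature Extraction log ratio (0.0143) and with median centring (0.0912). Proteasome subunits had none in 31, with 13 rising at 240 min (18.8% of all genes), none called at 30 min and a median difference of 0.13, or 0.263 with median centring. Flna, an actin crosslinker, was the one called of 14 SRF and contractile genes (0.43 ± 0.09, adjusted p = 0.011). Of its dimmer probes, one at 0.37 was called and one at 0.01 was not. Tgfb3, a growth factor of fibroblasts, was the one of 21 on the TGF-beta, BMP and ID list (0.42 ± 0.09, adjusted p = 0.018), with 1 of its 3 control values at 30 min missing. The lists of p53 targets had no called difference among 21 genes of arrest, repair and feedback and 15 of cell death (1.26% of all genes).

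Stub1, Daxx, Hsf1, Trp53, Cdkn1a and Mdm2 had no called difference between the times. Stub1 had effects of 0.15 and 0.12 (difference -0.04 ± 0.10, adjusted p = 0.91) and Daxx, a nuclear adaptor and partner of PML, -0.15 and -0.10 (difference 0.05 ± 0.08, adjusted p = 0.83). Hsf1 had a difference of -0.05 ± 0.10, Trp53 of 0.08 ± 0.09, its target Cdkn1a of -0.04 ± 0.10 and its ligase Mdm2 of -0.21 ± 0.13. Dimmer Hsf1 probes gave 0.01 and 0.11, also not called. Mdm2 fell at both times, by 0.37 and 0.58. Rmrp, the RNA of a ribonuclease complex, rose at both times by 1.95 and 2.36 (difference 0.41 ± 0.18, adjusted p = 0.24). Its 6 heated arrays at 2.28 to 2.77 stood above its 6 controls at -0.12 to 0.86.

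The CHIP null arrays gave the nearest comparison. There 320 genes (2.37%) had a called difference by time, 146 higher (1.08%) and 174 lower (1.29%). Of the macrophage markers 3 and of the mitosis genes 4 were called higher there, and 3 histones were called lower. The wildtype and CHIP null contrasts share no array, but they share some slides, the time sets and the reference RNA, so they are not independent. Across all 13488 genes their differences correlated at 0.54, and 66.0% had the same sign. Of the 170 genes called in the wildtype, 163 had the same sign in the CHIP null, with a correlation of 0.87. By class, 61 of 61 late falls, 49 of 52 early falls, 45 of 48 late rises and 8 of 9 early rises did. Late falls were called again in 24 of 61 genes, early falls in 10 of 52, late rises in 4 of 48 and early rises in 4 of 9. Rsrp1 was among these with 1.17, and so were H1f5 with -0.78 and Stard4 with -0.63. Hspa1a had 1.78 there (adjusted p = 0.088), and its difference between genotypes was 1.11 (adjusted p = 0.95).

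The test of the difference between genotypes called 5 genes (0.0371%), all macrophage markers and all higher in the wildtype contrast: Marco by 1.64 ± 0.16 (adjusted p = 7.4e-07), Lyz1 by 1.24 ± 0.16, Lyz2 by 1.10 ± 0.17, Adam8 by 1.10 ± 0.13 and Ctss by 0.75 ± 0.13 (adjusted p = 0.0082). In CHIP null cells the 30 min controls of Marco read -2.08 to -1.77 and the heated cells -1.71 to -1.69, a rise of 0.25 (adjusted p = 0.015) where the wildtype fell. Lyz2 did fall in CHIP null cells at 30 min, by 0.89 (adjusted p = 7.9e-08), from -2.75 to -2.55 in controls to -3.68 to -3.36 after heat. With slide as a block Marco, Lyz1 and Adam8 stayed called and Lyz2 (1.13, adjusted p = 0.30) and Ctss (0.683, adjusted p = 1) did not. With median centring Marco and Lyz1 stayed called, with a normexp offset of 10 Marco and Adam8, and in the Feature Extraction log ratio those same 2 of the 5. At 240 min all 5 genes rose in CHIP null cells, by 0.20 to 0.37. The CHIP null difference by time was itself called for Lyz2 (1.155), Lyz1 (0.43) and Adam8 (0.39), in the same direction as the wildtype. It was not called for Marco (0.12) and Ctss (0.25).

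**Figure D5:**
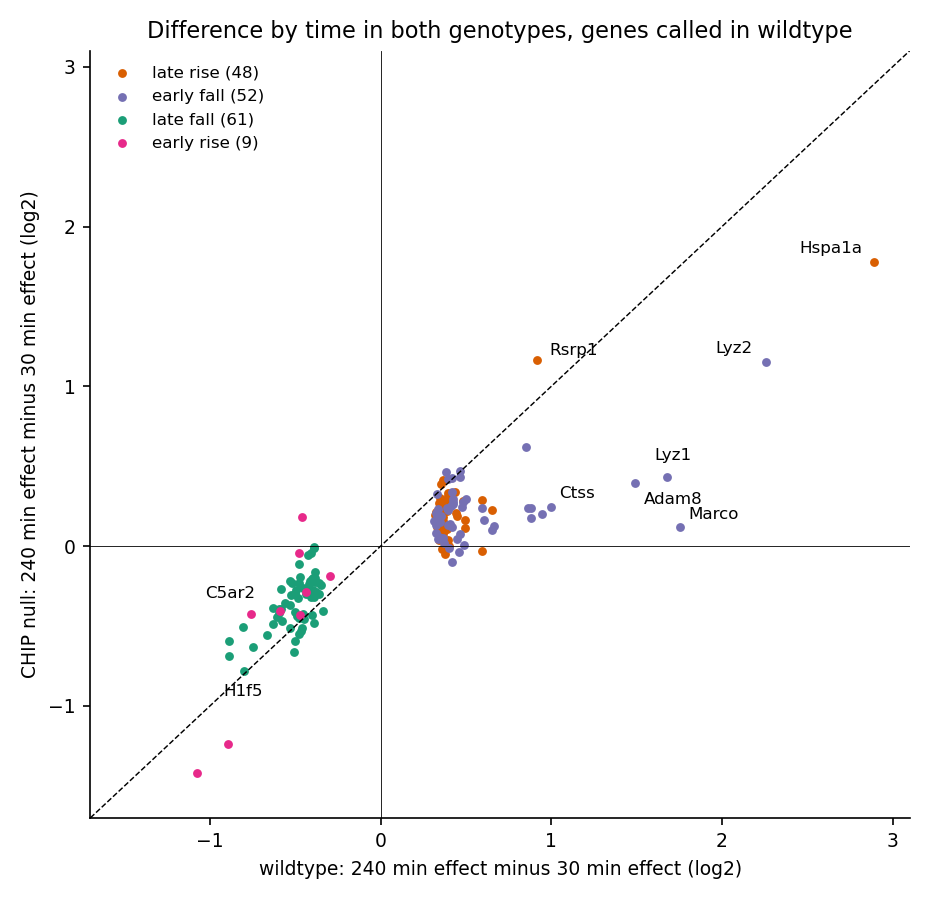
Difference by time in CHIP null cells against the difference by time in wildtype cells for the 170 genes called in the wildtype, in log2 units; colours are the classes and the dashed line marks equal values. Most points lie in the lower left and upper right of the plot. Marco, Lyz1 and Adam8, at 1.75, 1.68 and 1.49 in the wildtype, lie well below the dashed line. Their CHIP null values were 0.12, 0.43 and 0.39.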

How the data were processed

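RNA was hybridised to Agilent whole mouse genome arrays, the sample in Cy5 and a common reference in Cy3 on every array, with no dye swap. The deposited scanner files hold the intensity of each spot in both channels, made by the authors with Agilent Feature Extraction 9.1.3.1, per the file headers. The deposited scanner files also hold the log10 ratio of red to green, computed by Feature Extraction from background-subtracted and dye-normalised signals, per the file headers. The value table deposited by the authors was used as an alternative. Its score values were made by the authors in steps that the labels leave unstated. Set against the scanner files, each score was the log10 ratio over ln 2, and in heated columns the mean of the matching controls had been subtracted. Its columns were mapped by name and, for the reason given in the results, its times were exchanged; the 12 wildtype columns had medians of -0.031 to 0.022.

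Intensities were corrected by normexp with an offset of 50, normalised by loess within arrays with control spots at weight 0, and averaged per probe; 333 outlier spots were left out. A gene was represented by its brightest probe and tested if that probe passed Agilent's test against background in Cy5 on every array of 1 or more of the 8 groups, which left 13488 of 27672 genes or features. Group means of all 24 arrays were fitted with limma 3.58.1 in R 4.3.3, contrasts were tested with eBayes and p-values were adjusted by Benjamini-Hochberg over all genes at 0.05. The number of arrays limits the precision. "Called" means an adjusted p below 0.05.

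Named genes are the 6 with the largest difference in each class among those with a gene symbol, the 4 largest called members of each of 37 lists, and 15 fixed genes; genes given as examples of a list or class in addition were chosen after their values were seen. The contrast, the lists and the fixed genes were chosen with earlier results of these data known. Lists are described by counts and medians, without a set test. Where a gene name was printed in the results, it came from the accession or symbol in the file matched to RefSeq. Replicate numbers did not pair the samples: deviations of same-numbered control and heated arrays correlated at -0.03 to 0.22. Alternatives covered background correction, normalization, filter, probe choice, samples in the fit, slide, replicate number, time labels and each array left out.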

Additional observations from a re-analysis of the deposited data

Results flagged for a closer look

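The heat effect differed between 30 and 240 min for 170 genes of the wildtype by the test of the difference itself; the values of the named ones stand in the results.

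The difference by time also differed between wildtype and CHIP null for 5 genes by the test of the three-way interaction: Marco by 1.64, Lyz1 by 1.24, Lyz2 by 1.10, Adam8 by 1.10 and Ctss by 0.749 on the log2 scale. All 5 are macrophage markers. Each had its highest wildtype values in the 30 min controls, the group whose summed macrophage markers stood at 17.7 to 18.2 against 10.7 to 14.4 in the other 7 groups. The part of macrophage content in these 5 values was not tested.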

How the results depend on the processing

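The difference by time gave 170 called genes (100 higher, 70 lower), with 1964 genes called at 30 min, 4245 at 240 min, 320 for the CHIP null difference and 5 for the difference between genotypes. A normexp offset of 10 gave 102 (57 and 45), 106 for the CHIP null and 2 between genotypes. The Feature Extraction log ratio gave 115 (75 and 40), 2746 at 30 min, 2650 at 240 min, 114 for the CHIP null and 3 between genotypes. Median centring gave 28 (16 and 12), 619 at 30 min, 1851 at 240 min, 8 for the CHIP null and 2 between genotypes. The wildtype arrays alone gave 311 (146 and 165). Slide as a block gave 20 (14 and 6), 453 at 30 min, 618 at 240 min, 25 for the CHIP null and 3 between genotypes. Within slides that held both treatments there were 35 (21 and 14), 762 at 30 min and 1095 at 240 min. Slide as a random block gave 117 (69 and 48) and 209 for the CHIP null. The authors' value table with its times exchanged gave 102 (66 and 36), 2712 at 30 min, 2619 at 240 min, 112 for the CHIP null and 3 between genotypes. Exchanging the time labels turned every sign, with 4245 genes called at 30 min and 1964 at 240 min. The fit within slides uses fewer arrays by construction. Slide as a block takes the wildtype difference from those same slides, as for Hspa1a (4.58) and Lyz2 (2.37) in both fits. For the other settings the cause was not tested. Leaving out 1 wildtype array gave 87 to 248 genes (52 to 154 higher, 35 to 118 lower), 1052 to 2000 at 30 min, 2681 to 4353 at 240 min, 229 to 358 for the CHIP null and 5 to 6 between genotypes.

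The share of called genes that were higher was 58.8%. It was 46.9% with wildtype arrays only, 43.8% without heated replicate 1 at 240 min and 70.0% with slide as a block. Other filters and the mean of all probes kept each count within 1.5-fold, and Aquantile leaves the ratios as they are by construction.

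Pairing by replicate number was not shown. With a replicate block 138 genes were called (71 higher, 67 lower), 117 of them among the 170, and 5 between genotypes. Of the 38 genes with a call that were followed across fits, 34 kept it under this block.

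Of the named genes without a call, 7 changed sign in at least 1 fit, and Hsp90aa1 was called with wildtype arrays only. Slides and time sets, 3 arrays a group and weak signals near background limit what these data can show.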

Other observations

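Several genes outside the marker lists followed the course of the macrophage markers and were picked out after their values were seen. Trem2, Clec4d and Ms4a7, which encode receptors and a membrane protein of myeloid cells, and Cfp, the complement factor properdin, fell at 30 min by 0.63, 0.68, 0.29 and 0.39. Their differences by time were 0.88, 0.86, 0.49 and 0.47. Clec4d and Ms4a7 were not well above background in the heated cells at 30 min, so these falls in the ratio are taken against floor values. In the Cy5 signal alone, scaled between arrays, their controls were at least 1.65-fold and at least 1.30-fold higher. In CHIP null cells the same differences were 0.24, 0.24, 0.01 and 0.07. Dimmer probes of Trem2 and Ms4a7 gave wildtype differences of 0.29 and 0.23 without a call.

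Mylpf, a myosin light chain of fast skeletal muscle, had a difference of -1.83 ± 0.89 that missed the threshold (adjusted p = 0.31). It rested on 1 array: heated replicate 2 at 30 min read 0.01, and the other 11 wildtype arrays read -5.23 to -4.72. Of the 15 skeletal and cardiac muscle markers tested none had a called difference (1.26% of all genes had one).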
